A study of Mus musculus with 6 samples.

Results

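The microRNAs (miRNAs) miR-183, miR-96 and miR-182 are cut from 3 hairpins that lie side by side in the genome, and their mature arms were followed in the extracellular vesicles (EVs) of mouse colon and of cultured dendritic cells. Members were the rows of the deposited count table that are named as a mature arm of one of these hairpins. They number 5 of the 1966 rows, namely mmu-miR-183-5p, mmu-miR-183-3p, mmu-miR-96-5p, mmu-miR-182-5p and mmu-miR-182-3p, where mmu stands for mouse and is left out from here on. The table also lists miR-96-3p, which had 0 counts in all 6 libraries and is given only beside its hairpin. The study compared the miRNAs of 3 colon EV and 3 BMDC EV preparations to find which of them both sources carry. Colon EVs came from the medium of opened colons kept for 16 hours as explants, were purified on an iodixanol density gradient and were taken from fraction 2. BMDC EVs came from bone marrow dendritic cells (BMDCs) grown with GM-CSF in complete RPMI for 7 days. The labels and the study's methods give the gradient to the colon samples only, whereas the study's text elsewhere names it for both sources. The methods also name exosome-depleted serum for the explant medium but not for the BMDC medium, and the part of serum vesicles in BMDC EV counts was not tested. All 6 libraries carry the strain label Rab27A fl/fl, a floxed allele of a GTPase that EV release depends on, and the labels name neither a knockout nor a Cre, an age or a sex for single samples. The study's mice have a C57BL/6 background. Explants hold every cell type of the colon wall, and GM-CSF cultures of bone marrow hold macrophage-like cells and granulocytes as well as dendritic cells. The labels do not say whether the replicates of a source came from separate animals, so p-values measure only the spread between these preparations, which may be technical.

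A miRNA hairpin is cut by Drosha and Dicer into a short duplex, of which 1 strand, the 5p or the 3p arm, is usually kept by Argonaute and guides it to target mRNAs through its seed, bases 2 to 8. The 3 hairpins are made from a shared primary transcript, so that their arms tend to be made together, while cutting and decay can still set their levels apart. The family is best known from sensory cells of the ear and retina, where changes in the seed of miR-96 cause hearing loss. It is also made in epithelia and in activated lymphocytes, miR-182 being induced in helper T cells by IL-2, and all 3 miRNAs are often raised in colorectal tumours. FOXO transcription factors are well-studied targets of miR-182 and miR-96.

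The sequences of the 3 arms that carried nearly all counts are shown first, because the family is defined by seeds that are alike but not the same. They are RefSeq sequences of GRCm38.p6, written 5′ to 3′ with the seed in capitals:
miR-183-5p: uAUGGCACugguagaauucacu
miR-96-5p: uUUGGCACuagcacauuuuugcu
miR-182-5p: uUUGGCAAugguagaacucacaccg

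The 3 seeds share the letters UGGCA at bases 3 to 7. Only the part GGCA at bases 4 to 7 was counted in other miRNAs. It is held at that place by 12 of the 1675 listed miRNAs with a RefSeq sequence (0.716%), the 3 members included. No 2 members have the same seed. Counted from 1 at the 5′ end and with the base of the first-named miRNA written first, the seeds of miR-183-5p and miR-96-5p differ by A2U, those of miR-96-5p and miR-182-5p by C8A, and those of miR-183-5p and miR-182-5p by both. Over their length miR-183-5p and miR-182-5p are close, with 18 of 22 bases, seed included, identical when aligned from base 1 without gaps. Outside the seed, U17C and U22A are the only differences among these bases. By the same alignment miR-96-5p shares 13 of 22 bases with miR-183-5p and 12 of 23 with miR-182-5p. One other listed miRNA, miR-1271-5p, has the seed of miR-96-5p (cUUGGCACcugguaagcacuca). It had 0 counts in every library, as did miR-3475-5p, which has the seed of miR-96-3p, so among listed miRNAs with a RefSeq sequence no other one with these seeds had counts.

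The other arm of Mir183 is shown because it was the only 3p arm of the cluster with any count. Its seed is unrelated to those of the 5p arms:
miR-183-3p: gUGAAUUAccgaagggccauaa

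All 3 hairpins lie on the minus strand of chromosome 6 of GRCm38. In the direction of transcription, Mir183 (chr6:30169668-30169737) comes first, Mir96 (chr6:30169446-30169551) follows after 116 bases, and Mir182 (chr6:30165918-30165992) after a further 3453 bases, so that together they span 3820 bases. RefSeq places them inside the long noncoding gene Mirc35hg (chr6:30158640-30174125, minus strand), whose exons were not used here. In GENCODE vM21 no other gene of either strand overlaps them, and they lie between Nrf1, which ends at base 30153458, and the noncoding gene Rncr4, which starts at base 30172893, both on the plus strand.

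The 6 libraries held between 83980 and 645290 counts after rounding. Colon EV libraries had 173348 to 645290 and BMDC EV libraries 83980 to 178443, so the BMDC EV values below rest on fewer counts. A count of 3, taken as the floor of detection, corresponded to 4.65 to 17.3 CPM (a count scaled to the library total) in colon EVs and to 16.8 to 35.7 CPM in BMDC EVs. Intervals and floors cover counting error at most. It is not known whether molecular identifiers were counted, and the intervals are too narrow if copies of 1 molecule were counted separately. The labelled sources were described with lists of cell type miRNAs. These lists were chosen with earlier results of these data known, so they are not an independent check of the labels. The 10 epithelial miRNAs (the miR-200 family, miR-192, miR-194, miR-215, miR-375 and miR-203) held 22.9% to 30.2% of the counts of colon EV libraries and 0.385% to 0.806% of those of BMDC EV libraries. The 7 blood cell arms (both arms of miR-142a, miR-223-3p, miR-150-5p, miR-155-5p, miR-146a-5p and miR-342-3p) held 0.514% to 1.19% in colon EVs and 30.7% to 32.3% in BMDC EVs.

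The cluster was a sizeable part of colon EVs and a minor one of BMDC EVs. Its members together made up 18408, 5374 and 3888 counts of colon EV replicates 1, 2 and 3, which is 2.85%, 2.31% and 2.24% of the library. They had 193, 120 and 242 counts in BMDC EV replicates 1, 2 and 3, or 0.152%, 0.143% and 0.136%. The lowest colon EV library was thus far above the highest BMDC EV library, and the BMDC EV libraries were nearly alike. After scaling by TMM, a scaling that takes the bulk of miRNAs to be equal between libraries, the summed level was 29224 ± 6454 CPM (SD, n = 3) in colon EVs and 1223 ± 24.4 CPM (SD, n = 3) in BMDC EVs. On the log2 scale the difference of the means was −4.56. The exact two-sided permutation test gave p = 0.10, the smallest that 3 against 3 libraries allow.

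**Figure D1:**
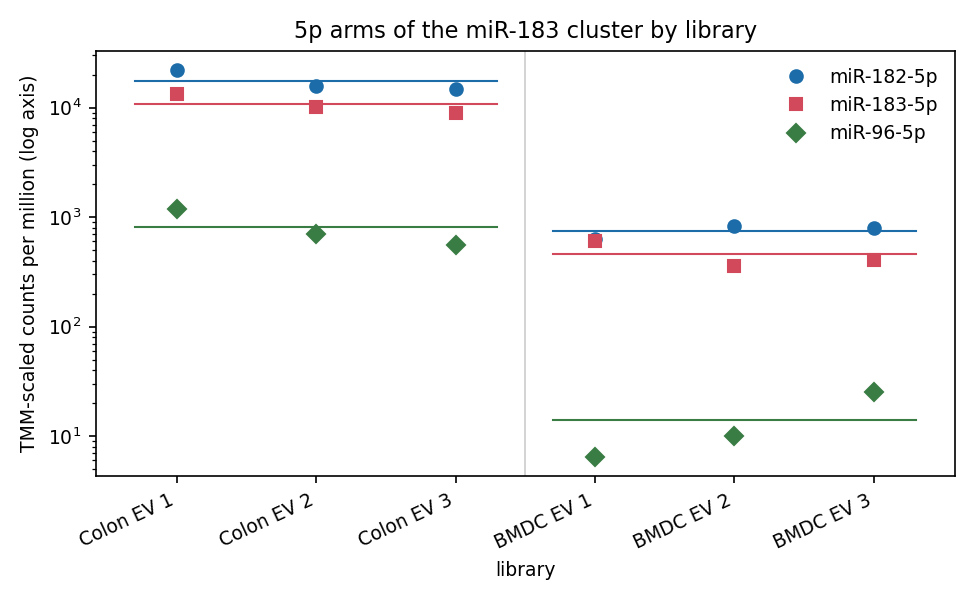
TMM-scaled CPM (vertical log axis) of miR-182-5p, miR-183-5p and miR-96-5p in each of the 6 libraries, with horizontal lines at the mean of each source. Each of the 3 miRNAs lies higher in all colon EV libraries than in all BMDC EV libraries, and miR-96-5p lies lowest in every library.

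miR-182-5p was the most abundant member. Its counts in colon EV replicates 1, 2 and 3 were 11091, 3185 and 2381, or 22027, 15824 and 14951 TMM-scaled CPM. In BMDC EV replicates 1, 2 and 3 it had 98, 83 and 157 counts, or 635, 831 and 790 TMM-scaled CPM. The groups did not overlap, and the BMDC EV libraries lay close together. Its mean was 17601 ± 3858 CPM (SD, n = 3) in colon EVs and 752 ± 104 CPM (SD, n = 3) in BMDC EVs. By mean level it ranked 17 of the 220 tested miRNAs in colon EVs but 72 in BMDC EVs. The log2 fold change of BMDC EVs over colon EVs was −4.55 (standard error 0.261, edgeR's quasi-likelihood test, Benjamini-Hochberg adjusted p = 2.49e-11), which is a 23.5-fold lower level in BMDC EVs.

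miR-183-5p, from the first hairpin of the transcript, was second. Its counts were 6708, 2044 and 1418 in colon EV replicates 1, 2 and 3, or 13322, 10155 and 8904 TMM-scaled CPM. Its counts were 94, 36 and 80 in BMDC EV replicates 1, 2 and 3, or 609, 361 and 403 TMM-scaled CPM. These groups did not overlap either, and within BMDC EVs replicate 1 stood above the other 2. Its mean was 10794 ± 2277 CPM (SD, n = 3) in colon EVs, rank 23, and 457 ± 133 CPM (SD, n = 3) in BMDC EVs, rank 91. The log2 fold change was −4.55 (standard error 0.278, edgeR's quasi-likelihood test, Benjamini-Hochberg adjusted p = 4.75e-11), so the fold of miR-183-5p and that of miR-182-5p differed by far less than their standard errors.

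miR-96-5p, the member known from hearing, was the least abundant 5p arm. The colon EV replicates 1, 2 and 3 held 602, 141 and 88 counts of it, or 1196, 701 and 553 TMM-scaled CPM. In BMDC EV replicates 1, 2 and 3 it had 1, 1 and 5 counts, so that 2 of the 3 libraries lay under the floor of 3 counts and detection in BMDC EVs rests mainly on replicate 3. Its mean was 816 ± 337 CPM (SD, n = 3) in colon EVs, rank 76, and 13.9 ± 9.93 CPM (SD, n = 3) in BMDC EVs, rank 209. The fitted log2 fold change was −5.71 (standard error 0.531, edgeR's quasi-likelihood test, Benjamini-Hochberg adjusted p = 1.85e-08), a size that depends on how the fit treats counts near 0. From the summed counts, 831 of 1051294 in colon EVs and 7 of 389204 in BMDC EVs, the ratio of CPM without TMM was 43.9 (exact 95% interval 21.2 to 110).

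**Figure D2:**
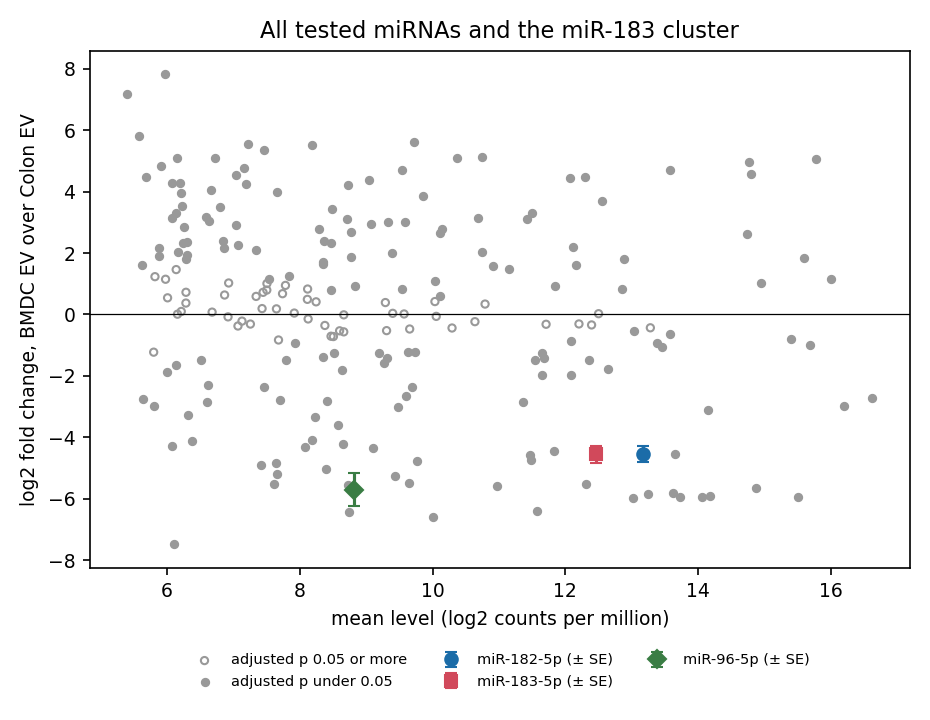
Log2 fold change of BMDC EVs over colon EVs (vertical axis) against the mean level in log2 CPM (horizontal axis) for the 220 tested miRNAs, filled where the adjusted p is under 0.05, with the 3 tested members in colour and bars for 1 standard error. miR-182-5p and miR-183-5p lie together at −4.55 among abundant miRNAs, and miR-96-5p lies at −5.71 at a lower mean level.

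Of the 5 members, 3 were tested, having at least 10 counts in at least 3 libraries. miR-183-3p and miR-182-3p fell short of this. miR-182-5p and miR-183-5p reached 10 counts in all 6 libraries, while miR-96-5p reached it in the colon EV libraries alone and so could pass only by being higher there. Among all tested miRNAs, 76.8% had an adjusted p under 0.05 in either direction, 36.4% had one and were lower in BMDC EVs, 24.1% had one with a log2 fold change under −2, as the 3 tested members did, and 39.1% had every colon EV library above every BMDC EV library, so the calls of the members are of a common kind in this comparison. The size of the change was less common for miR-182-5p and miR-183-5p. The median log2 fold change of all tested miRNAs was 0.19, the lowest was −7.49, and miR-182-5p and miR-183-5p were numbers 27 and 28 of 220 from the lowest. miR-96-5p was number 12, but its place rests on 7 counts in BMDC EVs and on this filter, so it is not read as a size. In pooled vesicles, fewer EVs from the cells that make a miRNA and fewer copies per EV cannot be told apart.

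The order of abundance within the cluster was the same in all 6 libraries, with miR-182-5p above miR-183-5p and miR-183-5p above miR-96-5p. In colon EVs the proportions were tight. miR-182-5p held 60.3%, 59.3% and 61.2% of the cluster's counts in replicates 1, 2 and 3, miR-183-5p 36.4%, 38.0% and 36.5%, and miR-96-5p 3.27%, 2.62% and 2.26%. The mean shares in colon EVs were 60.3% ± 0.986 (SD, n = 3), 37.0% ± 0.912 (SD, n = 3) and 2.72% ± 0.510 (SD, n = 3), respectively. Both neighbours in this order therefore differed by many times the spread between libraries.

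In BMDC EVs the same shares were looser. miR-182-5p held 50.8%, 69.2% and 64.9% in replicates 1, 2 and 3, with exact 95% intervals of 43.5% to 58.0%, 60.1% to 77.3% and 58.5% to 70.9%. miR-183-5p held 48.7%, 30.0% and 33.1%, with intervals of 41.5% to 56.0%, 22.0% to 39.0% and 27.2% to 39.4%. In replicate 1 miR-182-5p and miR-183-5p were not set apart by counting error, at 98 against 94 counts, and in the other 2 libraries they were. miR-96-5p held 0.518%, 0.833% and 2.07% in BMDC EV replicates 1, 2 and 3. Its upper bounds of 2.85%, 4.56% and 4.76% reach into the range of colon EVs in each library.

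**Figure D3:**
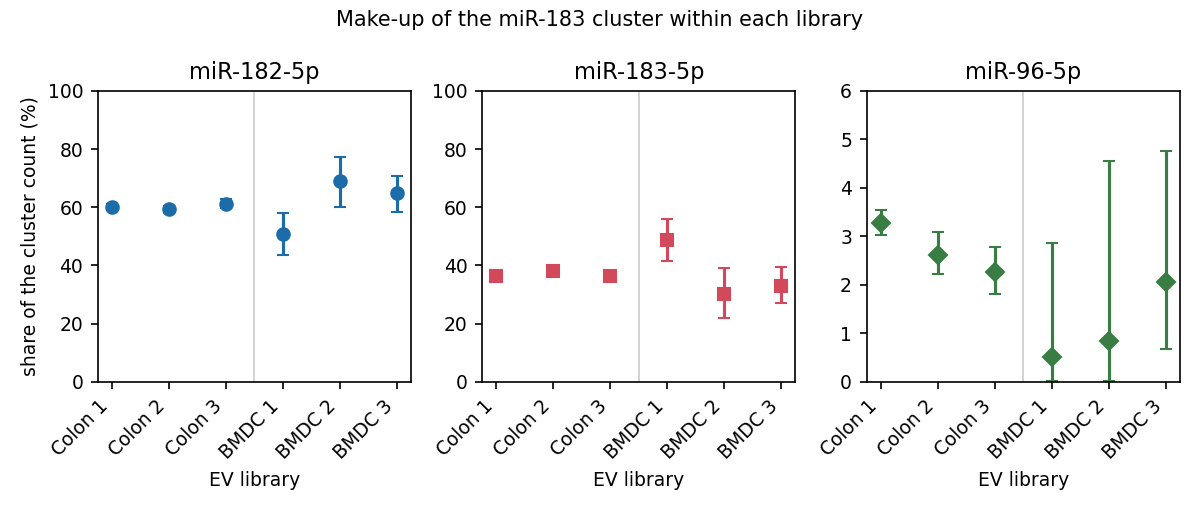
Share of the cluster's counts (vertical axes, percent; the axis of miR-96-5p ends at 6%) held by each 5p arm in each EV library, with exact 95% intervals for counting error. The colon EV shares are near 60%, 37% and 3%, and the BMDC EV shares scatter around similar values with wide intervals, replicate 1 standing lowest for miR-182-5p at 50.8% and highest for miR-183-5p at 48.7%.

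Ratios between members are free of the scaling between libraries. miR-182-5p exceeded miR-183-5p 1.65-, 1.56- and 1.68-fold in replicates 1, 2 and 3 of colon EVs. The same ratio was 1.04, 2.31 and 1.96 in replicates 1, 2 and 3 of BMDC EVs. The BMDC EV ratios thus lay on both sides of the narrow colon EV range, and the interval of BMDC EV replicate 1 alone, 0.778 to 1.40, ended below it. Between sources the log2 ratio differed by 0.042 (BMDC EV less colon EV, exact two-sided permutation p = 1.0, n = 3 per source, Benjamini-Hochberg adjusted over 3 ratios 1.0). The ratio of miR-182-5p to miR-96-5p was 18.4, 22.6 and 27.1 in replicates 1, 2 and 3 of colon EVs, against 98.0, 83.0 and 31.4 in those of BMDC EVs. Here the sources did not overlap, with a log2 difference of 1.5 (exact two-sided permutation p = 0.10, adjusted 0.30), but each BMDC EV ratio rests on 1 to 5 counts of miR-96-5p. For miR-183-5p over miR-96-5p the log2 difference was 1.46 (exact two-sided permutation p = 0.20, adjusted 0.30), and the ratio of 16.0 in BMDC EV replicate 3 fell within the colon EV range of 11.1 to 16.1. For the shares themselves, miR-182-5p was 1.35 and miR-183-5p 0.272 percentage points higher and miR-96-5p 1.58 points lower in BMDC EVs, with exact two-sided permutation p of 0.90, 1.0 and 0.10 (adjusted over the 3 shares 1.0, 1.0 and 0.30).

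Whether the members of a genomic cluster changed by different amounts was also tested with edgeR's test for differential usage, over all units of at least 2 tested arms whose hairpins lie within 10 kb of each other on 1 strand. Of 36 such units, 11 (30.6%) had an adjusted p under 0.05, but 20 of the 36, 5 of them called, hold only both arms of 1 hairpin and so compare arms. Of the other 16, with arms from 2 or more hairpins, 6 (37.5%) were called. The miR-183 cluster was not among them (edgeR's test, adjusted p = 0.335). Against the rest of its cluster, miR-96-5p had a log2 difference of −0.78 (edgeR's test, adjusted p = 0.337), miR-182-5p one of 0.018 (adjusted p = 0.994) and miR-183-5p one of 0.017 (adjusted p = 0.994). The value of miR-96-5p moved to −1.41 without BMDC EV replicate 3, which holds 5 of its 7 counts there, and to −0.52 without BMDC EV replicate 1. The fitted log2 fold changes of the 3 members spanned 1.16, and 9 of the 16 units with 2 or more hairpins, some of which also hold both arms of a hairpin, had a smaller span.

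Arm ratios were far to the side of the 5p arm. From Mir183, the 3p arm shown above had 7, 4 and 1 counts in replicates 1, 2 and 3 of colon EVs beside 6708, 2044 and 1418 of the 5p arm. This is 0.104%, 0.195% and 0.0705% of the hairpin's counts and 0.118% over the 3 libraries together (exact 95% interval 0.0609% to 0.206%). miR-183-3p had 0 counts in each BMDC EV library, where the 5p arm had 210 counts in all, which allows a share of up to 1.43%. At the colon EV share only 0.247 counts would be found there, so a change of arm use between the sources was not detectable at this depth. In CPM without TMM, miR-183-3p summed over colon EVs stood 1.48-fold above a floor of 3 counts over all BMDC EV libraries. That figure leaves out the counting error of its 12 counts, and the exact 95% interval of the ratio begins at 1.03. By library, its 10.8, 17.2 and 5.77 CPM in colon EV replicates 1, 2 and 3 did not clear the BMDC EV floors of 16.8 to 35.7 CPM. A difference in miR-183-3p between the sources was thus not resolved.

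From Mir182, the 3p arm was at 0 of 16657 counts in colon EVs, which allows a share of up to 0.0180%, and at 0 of 338 in BMDC EVs, which allows up to 0.888%. From Mir96, the 3p arm was at 0 of 831 counts in colon EVs, which allows up to 0.361%, and the 7 counts of the hairpin in BMDC EVs set no useful limit. In the summed counts of colon EVs, the interval of the 3p share of Mir183 begins above the limit for Mir182. By library this held in replicate 1 alone, the deepest, where the interval begins at 0.0419% and the limit is 0.0270%. In replicates 2 and 3 the interval of Mir183 begins below the limit for Mir182. Such an overlap does not show that the 2 hairpins were alike there. In replicates 2 and 3 the 3p arm of Mir183 had 4 and 1 counts and that of Mir182 had 0. The difference between these 2 hairpins within a library was not tested. Among 40 hairpins with both arms listed and at least 1000 counts in colon EVs, the minor arm had a median share of 0.228%, 16, Mir183 included, had a share at or under that of Mir183, and only Mir182 and Mir98 had a minor arm at 0. A product of nearly 1 arm alone, 5p or 3p, was therefore common among abundant hairpins of colon EVs. Across the 69 hairpins with enough counts of both arms, 13 (18.8%) had an adjusted p under 0.05 for arm usage between sources from edgeR's test, and Mir183 did not (adjusted p = 0.669).

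The cluster differed less between the sources than the epithelial miRNAs of the list did. All 10 were called lower in BMDC EVs, beside 36.4% of all tested miRNAs. Their log2 fold changes ran from −6.41 for miR-215-5p to −5.48 for miR-375-3p with a median of −5.88, against −4.55 for miR-182-5p and for miR-183-5p. The fitted value of miR-96-5p, −5.71, rests on 7 counts in BMDC EVs and moved from −6.66 to −4.95 between alternatives, so it was not placed against that range. Counts of the cluster per 100 counts of the epithelial list were 9.43, 10.1 and 9.71 in replicates 1, 2 and 3 of colon EVs, against 22.6, 17.7 and 35.2 in those of BMDC EVs. The 3 colon EV libraries were nearly equal and all lay below the BMDC EV libraries. The log2 difference was 1.31 (exact two-sided permutation p = 0.10, the smallest that 3 against 3 libraries allow). Epithelial miRNAs thus move with the cluster between the sources, and their part in its difference was not tested.

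**Figure D4:**
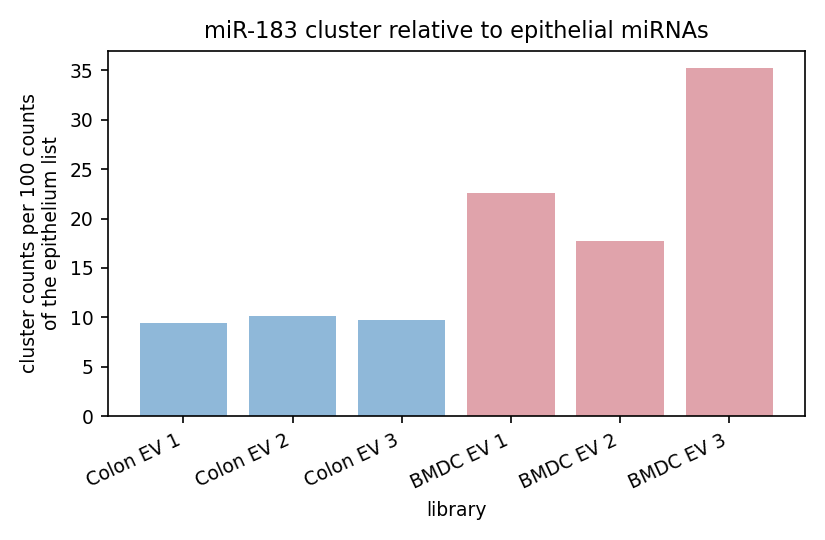
Counts of the miR-183 cluster per 100 counts of the 10 epithelial miRNAs (vertical axis, from 0) in each library. The bars of the colon EV libraries stand between 9.43 and 10.1 and those of the BMDC EV libraries between 17.7 and 35.2.

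Of the other lists, the 7 blood cell arms were all higher in BMDC EVs (log2 fold changes 3.31 to 5.07), and both vessel arms, miR-126a-3p and miR-126a-5p, were lower (−1.40 and −3.29). Calls were common here, since 76.8% of all tested miRNAs were called in either direction and 36.4% were called lower in BMDC EVs. Of 5 muscle and mesenchyme miRNAs 1 was tested and lower, miR-143-3p, which smooth muscle is rich in. Of 3 nerve miRNAs 1 was tested, miR-128-3p, and did not pass (log2 fold change 0.49, edgeR adjusted p = 0.231), while miR-124-3p, a defining miRNA of neurons, was at 0 in every library. Neither red cell miRNA was tested, and together they held at most 0.00519% of any library.

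Outside the 3 hairpins, the 5 tested miRNAs whose profile over the 6 libraries was most like that of the summed cluster were miR-192-3p, miR-143-3p, miR-30a-5p, miR-224-5p and miR-6240. Likeness was measured as the root mean square difference between log2 levels, each centred on its own mean, and was 0.176, 0.270, 0.288, 0.298 and 0.348, respectively, against a median of 2.45 over the 217 miRNAs compared. miR-182-5p, miR-183-5p and miR-96-5p had values of 0.136, 0.210 and 0.489 by the same measure. The first 2 of these make up nearly all of the sum they are compared with, so that their low values are fixed by construction. The measure is a description over 6 libraries that share sources and depth. miR-30a-5p, one of the abundant ones, had 5382 ± 1096 CPM (SD, n = 3) in colon EVs and 228 ± 76.7 CPM (SD, n = 3) in BMDC EVs, and its log2 fold change was −4.58. miR-192-3p and miR-224-5p had at most 2 counts in any BMDC EV library and miR-96-5p 1, 1 and 5, so that their profiles there depend on the prior count of 2 used for log2 levels.

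**Figure D5:**
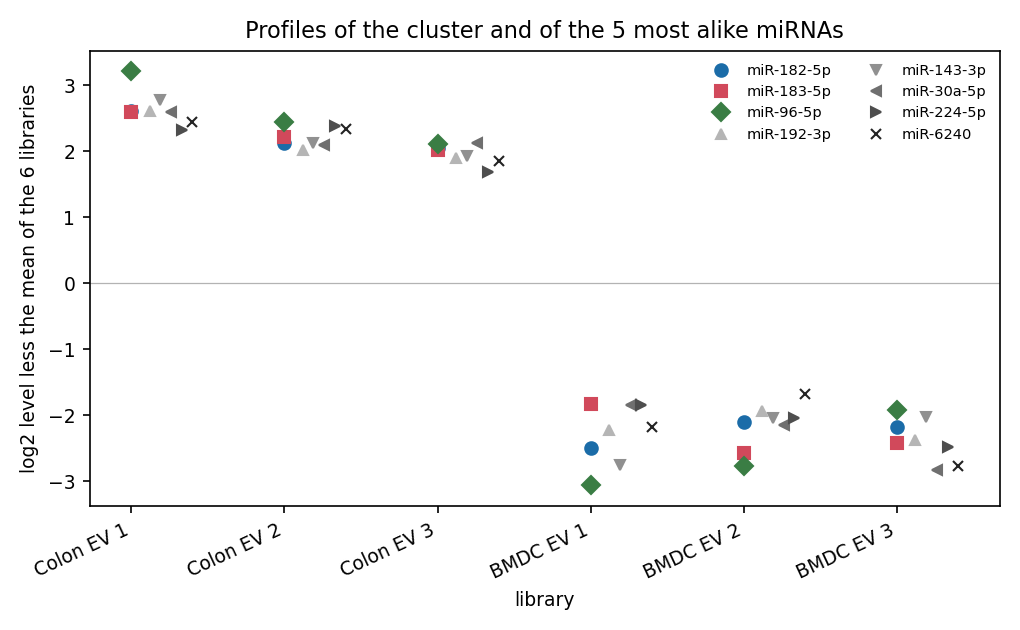
Log2 level less the mean of the 6 libraries (vertical axis) of the 3 members, in colour, and of the 5 miRNAs with the most similar profile, in grey and slightly offset, in each library. All 8 lie above 0 in the colon EV libraries and below 0 in the BMDC EV libraries, and miR-96-5p is the member with the highest value in colon EV replicate 1 and the lowest in BMDC EV replicate 1.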

How the data were processed

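Small RNA libraries of 3 colon EV and 3 BMDC EV preparations were made with a QIAseq miRNA kit, and libraries were assigned to sources and replicates by their labels. The authors deposited 1 table of estimated counts per mature miRNA, not normalized and not always whole (11 of 18 values of the 5p members were not whole). The submitters' processing notes name STAR 2.7.6a, featureCounts 1.6.3 and DESeq2 1.30.1 and the builds GRCm38 and mm10, without their roles. The miRNA annotation and the use of molecular identifiers are not given in the sources used here.

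Counts were rounded, those midway to the even neighbour. In R 4.3.3, edgeR 4.0.16 (TMM, quasi-likelihood test, Benjamini-Hochberg adjustment) was fitted to the 220 miRNAs that reached 10 counts in 3 or more libraries. The standard error is the log2 fold change divided by the square root of F. Arm and cluster usage were tested with diffSpliceDGE, arms where the pair reached 10 counts in at least 3 libraries and each arm 10 counts in all. Single values were compared by exact two-sided permutation, and shares have Clopper-Pearson intervals. Alternatives included DESeq2 1.42.0 and limma 3.58.1. On simulated data 64 of 66 changed miRNAs and 5 of 164 unchanged ones were called. For arm usage 10 of 10 changed hairpins and 1 of 60 unchanged ones were called, and for cluster usage 8 of 8 changed units and 1 of 28 unchanged ones. The changes planted in arms and in cluster members were larger than the usage differences fitted for Mir183 and for the miR-183 cluster. These counts therefore do not give the power to call differences of that smaller size. Libraries of a source differed beyond counting error (chi-square per degree of freedom at least 6.25), so none was taken as a duplicate. Members, lists and tests were chosen with earlier results of these data known. Named miRNAs are the members, seed mates, the 5 closest profiles and examples from the lists. Figures were drawn with matplotlib 3.10.9.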

Additional observations from a re-analysis of the deposited data

How the results depend on the processing

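Members kept their direction and their adjusted p under 0.05 in every alternative in which they were tested. The log2 fold change ranged from −5.09 to −4.04 for miR-182-5p and from −5.09 to −3.96 for miR-183-5p over 22 alternatives each, and from −6.66, without BMDC EV replicate 3, to −4.95, without BMDC EV replicate 1, for miR-96-5p over 19. miR-96-5p was not tested when a colon EV library was left out with the filter kept at 3 libraries. Scaling moved all miRNAs together, the median of all tested ones being 0.19 with TMM, 0.058 with DESeq2's size factors, 0.39 with upper-quartile scaling and 0.64 with no factor beyond library size. Without a filter, miR-183-3p could be tested too and did not pass (edgeR adjusted p = 0.052), and 30.0% of miRNAs were called. DESeq2, limma-voom and edgeR without rounding or with robust dispersion called the same 3 members. The summed level stayed between −4.68 and −4.10 over scalings and left-out libraries.

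Same-numbered libraries of the 2 sources did not deviate together (mean correlation −0.113 over 3 pairs). With so few pairs, and with sources that need not deviate alike, this cannot show whether the numbers pair the samples. With the replicate number as a block, the log2 fold changes were −4.53 for miR-182-5p, −4.57 for miR-183-5p and −5.64 for miR-96-5p, 8 clusters and 11 hairpins were called, and 2 differences near 0 changed sign, miR-183-5p against its cluster to −0.0069 and the 5p less the 3p fold change of Mir183 from 0.069 to −0.076. With both arms required to reach 10 counts in 3 libraries, 8 hairpins were called and Mir183 was left out. With a library left out in turn, 7 to 17 hairpins were called, fewest without colon EV replicate 1, and 5 to 8 clusters, fewest without BMDC EV replicate 2 or 3. In these fits miR-182-5p against its cluster lay between −0.040 and 0.105, miR-183-5p between −0.155 and 0.097, and miR-96-5p, for left-out BMDC EV replicates, between −1.41 and −0.52. With only clusters of 2 or more hairpins counted, a choice made after the data were seen, 6 were called. The difference in share lay between −2.43 and 6.77 points for miR-182-5p, lowest without BMDC EV replicate 2 and highest without BMDC EV replicate 1, and between −5.45 and 3.90 points for miR-183-5p, lowest without BMDC EV replicate 1. For miR-96-5p it stayed between −2.04 and −1.27 points. The cluster relative to the epithelial list, whose alternatives were chosen after the data were seen, stayed between 1.04, without BMDC EV replicate 3, and 1.53, without BMDC EV replicate 2. The planned log2 ratio of the arms of Mir183 was −2.48 (BMDC EVs less colon EVs), −3.25 with a pseudocount of 1 and −2.82 to −2.06 with a library left out, but with the 3p arm at 0 in BMDC EVs it is set by the pseudocount of 0.5 and is not read as a change. It was not computed for Mir182 and Mir96, whose 3p arms were at 0 throughout. Depth limits what BMDC EVs can show of miR-96-5p and of all 3p arms.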
